A study of Mus musculus with 2 samples.

Results

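The type I interferon response genes described here are a list of 36 mouse genes that interferon switches on, picked by gene symbol from the gene rows of both libraries. Of the 36, 35 had a row among the 32285 genes of each library, and Mx1 was not analysed here. They were measured by single-cell RNA sequencing in 2 liver libraries, prepared from 1 mouse apiece. Both mice bore liver tumours, and both had floxed copies of Glul (Glul f/f), which encodes the ammonia-fixing enzyme glutamine synthetase (GS). The control mouse carried AAV8-GFP and the GS-KO mouse carried AAV8-Cre, each for 7 weeks. The adeno-associated virus AAV8 infects mainly hepatocytes in mouse liver, and Cre recombinase cuts out the floxed part of Glul, so the 2 mice differed in the virus cargo. Cells left in the supernatant after collagenase perfusion were put through dead cell removal and magnetic enrichment with beads against the macrophage antigen F4/80.

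Type I interferons are secreted by cells that sense viral or misplaced nucleic acid, and they act on a receptor made of IFNAR1 and IFNAR2 on nearly every cell type. The receptor's kinases JAK1 and TYK2 phosphorylate STAT2, which binds DNA together with IRF9, within the complex ISGF3, at interferon-stimulated response elements in the promoters of many genes. The products degrade viral RNA, block translation and viral entry, sense more nucleic acid, or damp the signal again, and many of them also respond to interferon gamma or interferon lambda. In the liver, Kupffer cells, monocytes and sinusoidal endothelial cells are known to respond strongly, and cells keep a low tonic level of these transcripts without infection.

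The response element has a core of GAAA, any 2 bases and GAAA again, and it was searched as GAAANNGAAA on both strands of the RefSeq promoter windows (GRCm38.p6, 250 bases before to 50 after each gene start). The core was in 13 of the 26 members with a promoter entry (50%, exact binomial 95% interval 29.9% to 70.1%) and in 1079 of all 27025 genes of the same table (3.99%), where it was searched in the same way. At least 2 cores, counting overlapping ones, were in 7 of the 26 members and in 72 genes (0.266%) of the table. The stretches below hold the cores of 7 members that carry the results, read 5′ to 3′ on the gene's strand, all upstream of the gene start. Capitals mark the core or, where the core lies on the other strand, its reverse complement.
Isg15 (chr4:156200830-156200941, minus strand): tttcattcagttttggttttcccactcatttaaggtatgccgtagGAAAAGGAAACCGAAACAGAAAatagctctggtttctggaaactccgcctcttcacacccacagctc
Oas3 (chr5:120777680-120777779, minus strand): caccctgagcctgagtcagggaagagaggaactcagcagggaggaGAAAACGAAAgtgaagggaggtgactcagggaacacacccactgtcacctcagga
Bst2 (chr8:71537542-71537647, minus strand): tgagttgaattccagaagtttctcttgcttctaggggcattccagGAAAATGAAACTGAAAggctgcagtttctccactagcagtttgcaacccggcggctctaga
Rsad2 (chr12:26456518-26456617, minus strand): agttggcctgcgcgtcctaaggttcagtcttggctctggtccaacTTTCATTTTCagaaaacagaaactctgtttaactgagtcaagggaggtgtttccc
Ifit1 (chr19:34640740-34640858, plus strand): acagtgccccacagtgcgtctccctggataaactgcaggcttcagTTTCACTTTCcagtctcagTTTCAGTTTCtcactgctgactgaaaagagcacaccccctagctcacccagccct
Ifit3 (chr19:34583328-34583461, plus strand): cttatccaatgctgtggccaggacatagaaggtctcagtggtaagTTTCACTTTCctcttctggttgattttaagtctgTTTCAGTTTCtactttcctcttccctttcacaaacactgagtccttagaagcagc
Ifit3b (chr19:34607724-34607857, plus strand): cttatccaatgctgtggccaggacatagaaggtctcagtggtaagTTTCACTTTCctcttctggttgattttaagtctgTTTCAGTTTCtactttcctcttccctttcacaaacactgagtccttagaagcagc

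The Isg15 stretch had 3 overlapping cores, the first 78 bases upstream of the start. Ifit1, Ifit3, Ifit3b and Bst2 had 2 cores each, and Oas3 and Rsad2 had 1. The Ifit3 and Ifit3b stretches were identical over all 134 bases, and the longest stretch shared by these 2 promoter windows was 169 of 300 bases. The other members with a core were Stat2, Ifih1, Oas1a, Trim30a, Ifitm3 and Eif2ak2. No core was found within the window of Irf7, Irf9, Ifit2, Oasl1, Oasl2, Xaf1, Ifi44, Cmpk2, Ifi35, Sp100, Lgals3bp, Samd9l and Herc6. Members without a promoter entry, besides Mx1, were Oas2, Usp18, Zbp1, Ifi27l2a, Rtp4, Dhx58, Parp14, Ifi204 and Ly6e. All 4 Ifit members lay on chromosome 19, between base 34550694 (the start of Ifit2) and base 34650009 (the end of Ifit1), and all 5 members of the OAS family on chromosome 5, with Oasl1 and Oasl2 apart from Oas1a, Oas2 and Oas3. Rsad2 (26442746 to 26456452) and Cmpk2 (26469204 to 26479837) were neighbours on chromosome 12. Of the 35 members, only Oas1a (42.3% with Oas1g) and Ifit3 (6.57% with Ifit3b) shared 90-base stretches of their 3′ ends with another gene, so how reads were split within these pairs is uncertain.

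Of 5074 control and 1366 GS-KO barcodes, 3275 (64.5%) and 662 (48.5%) met the limits of 500 or more UMIs (deduplicated transcript counts), 200 or more genes and no more than 20% of UMIs from mitochondria, and 3251 and 655 remained after doublet removal. Median depth was 7320 and 4104 UMIs per cell, and the libraries shared 1 barcode before and 0 after filtering. Clusters were built with interferon genes hidden and named from fixed markers. In all, 7 groups had at least 30 cells in each library. These were macrophage-like (1365 control and 99 GS-KO cells), monocyte-like (121 and 53), neutrophil-like (96 and 103), endothelial-like (125 and 88), B-like (470 against 120) and T-like cells (178 against 63), and cluster 8 (164 and 39), which mixed T and NK markers and stayed unnamed. Glul stood at 3037 CPM (UMIs per 1000000 UMIs of the group) in control and 97.6 CPM in GS-KO hepatocyte-like cells, 31.1-fold lower. Macrophage-like (256 and 238 CPM) and T-like cells did not pass 1.5-fold for Glul, and it was 1.69-fold lower in monocyte-like, 2.67-fold in neutrophil-like, 2.46-fold in B-like and 1.62-fold in endothelial-like cells and 2.14-fold in cluster 8. Abundant hepatocyte genes summed to 2030 and 898 CPM in monocyte-like, 3772 and 335 in neutrophil-like, and 1724 and 174 in B-like cells. They had 3188 and 987 CPM in endothelial-like cells, 840 and 681 in cluster 8, and 1311 and 131 in T-like cells. The part of hepatocyte RNA from outside the cell in these Glul values was not tested. Each group is 1 mouse, so no test of a difference between conditions exists. All intervals are 95% and cover counting error only, and mouse, library and virus cannot be told apart.

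Cell types carried different parts of the programme. In the control library, the highest CPM among the 7 groups and hepatocyte-like cells was in neutrophil-like cells for 12 members, in endothelial-like cells for 10, in macrophage-like cells for 6, in monocyte-like cells for 5, in B-like cells for Ly6e and in cluster 8 for Sp100. For 20 of the 35 members the intervals of the 2 highest groups overlapped, so their order is not resolved. Neutrophil-like cells led clearly for Isg15 (420 CPM against 154 in endothelial-like cells), Rsad2 (185 CPM), Rtp4 (360 CPM), Oas3 (129 CPM) and Oasl2 (180 CPM). Endothelial-like cells led for Bst2 (872 CPM against 527 in hepatocyte-like cells), which encodes tetherin, the protein that holds budding virions at the membrane. Monocyte-like cells led for Ifitm3 (4632 CPM), a membrane protein that blocks virus entry, and for Ifi27l2a (2761 CPM). Macrophage-like cells led for Irf7 (227 CPM), the factor that amplifies interferon production, and for Lgals3bp (362 CPM). B-like cells had the most Ly6e (2316 CPM), a membrane protein known to restrict coronaviruses, but at most 5 control UMIs of each IFIT and OAS gene. The group with the highest level was the same in GS-KO for 26 members and another for 9.

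**Figure D1:**
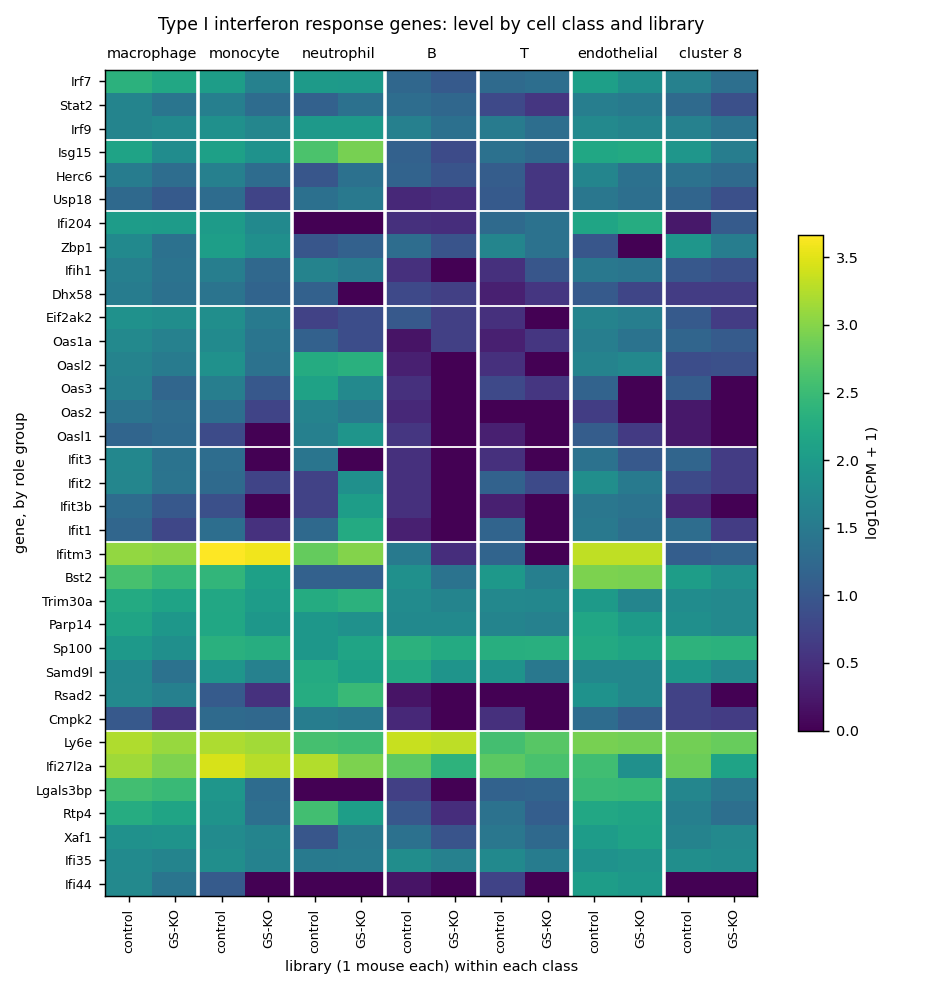
Level of each of the 35 members (rows, ordered by role) in 7 cell groups of the control and GS-KO libraries (columns), as log10(CPM + 1) by colour. Ifitm3 and Ifi27l2a are brightest (highest) in monocyte-like cells, and the OAS and IFIT rows are low in B-like and T-like cells.

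Between the libraries, members were mostly lower in the GS-KO mouse in macrophage-like and monocyte-like cells. In neutrophil-like cells their summed ratio of GS-KO over control was 1.01, but 0.813 without the cell with most member UMIs in each library. A member counts as measured in a group with at least 20 UMIs over both libraries, and as lower or higher past 1.5-fold, and each count is set beside the share of all measured genes past the same fold. In macrophage-like cells, 16 of 35 members were lower and 0 higher, where 17.8% of all genes were lower and 10.4% higher. In monocyte-like cells, 24 of 31 were lower and 0 higher, against 16.9% and 11.8% of all genes. In B-like cells 11 of 16 were lower and 0 higher, against 25.7% and 6.36%. In T-like cells 7 of 15 were lower and 0 higher, against 18.8% and 10.2%. In cluster 8, 13 of 22 were lower and 0 higher, against 25.1% and 10.7%. In endothelial-like cells 7 of 30 were lower and 0 higher, against 15.3% and 13.1%. Neutrophil-like cells differed, with 3 of 19 lower and 8 higher, against 17.5% and 13.1%. The median log2 ratio of GS-KO over control was −1.04 in monocyte-like, −0.80 in B-like, −0.73 in cluster 8, −0.55 in macrophage-like, −0.42 in T-like, −0.25 in endothelial-like and 0.24 in neutrophil-like cells. The medians over all measured genes lay between −0.21 and 0.03.

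Counted by the interval of the ratio, 25 of 35 members in macrophage-like cells lay wholly below 1 and 0 wholly above, where 9.44% of all genes lay below. The count below 1 was 20 of 31 in monocyte-like (9.07% of all genes), 7 of 16 in B-like (12.5%), 3 of 15 in T-like (7.49%), 6 of 30 in endothelial-like (10.0%), 4 of 22 in cluster 8 (10.0%) and 3 of 19 in neutrophil-like cells (10.9%). Wholly above 1 lay 6 members in neutrophil-like, 1 in T-like and 1 in endothelial-like cells, and 0 in monocyte-like and B-like cells and cluster 8. The share of all genes wholly above 1 was not computed. Depth differed between the groups: macrophage-like cells held 147408 control and 6204 GS-KO UMIs of the members and T-like cells 1571 and 527.

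**Figure D2:**
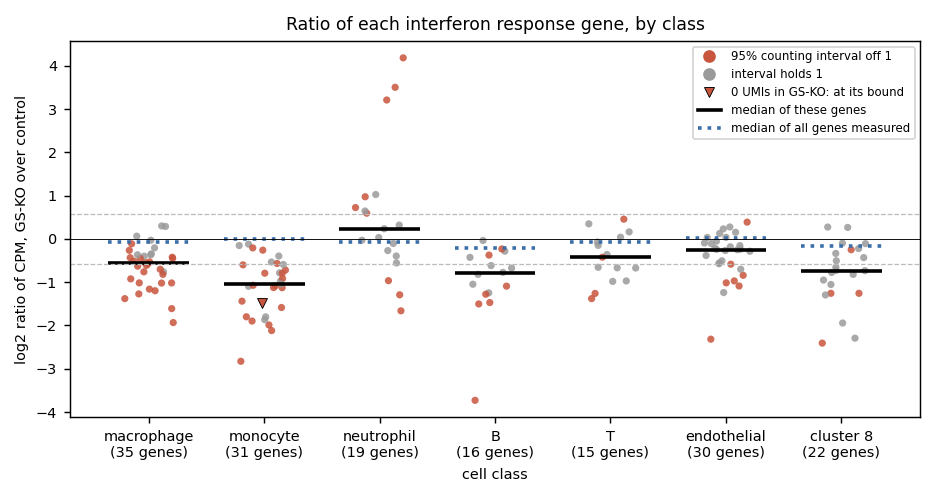
Log2 of the GS-KO to control CPM ratio for each measured member (points) in 7 cell groups, with the members' median (black line), the median of all measured genes (dotted) and the 1.5-fold limits (dashed); the triangle is monocyte-like Ifit3, drawn at its bound because GS-KO had 0 UMIs. Most points lie below 0 in macrophage-like and monocyte-like cells, while neutrophil-like cells spread to both sides.

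In macrophage-like cells the ISG15 system and the IFIT family were the groups lower throughout. Isg15, a ubiquitin-like protein that is coupled to newly made proteins, had 132 CPM in control and 59.2 CPM in GS-KO cells, 2.24-fold lower (1.77 to 2.87), with a UMI in 789 control and 30 GS-KO cells. Herc6, the mouse ligase that attaches ISG15, had 33.9 and 19.2 CPM, and Usp18, the protease that removes it and quiets the receptor, had 17.0 and 10.0 CPM with an interval that holds 1 (0.960 to 3.32-fold lower). All 4 IFIT genes, whose proteins bind foreign RNA or block its translation, were past the fold with a median log2 ratio of −1.02. Ifit3 had 49.0 and 24.2 CPM (2.03-fold lower, 1.402 to 3.04), Ifit2 47.5 and 25.02 CPM, Ifit1 15.4 and 5.003 CPM, and Ifit3b 18.6 and 9.17 CPM. Ifit2, whose promoter window holds no core, was 1.90-fold lower (1.32 to 2.83), within the interval of Ifit3.

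Sensors, factors and OAS genes were uneven in macrophage-like cells. Zbp1, which senses Z-form nucleic acid and starts necroptosis, had 54.4 and 22.5 CPM, 2.42-fold lower (1.65 to 3.68), and the RNA sensors Ifih1 (MDA5) and Dhx58 (LGP2) had 37.4 and 24.2 CPM and 33.5 and 22.5 CPM. Ifi204, a DNA-binding protein of the PYHIN family, stood at 104 and 102 CPM. Among the factors, Stat2 had 43.8 and 25.9 CPM (1.70-fold lower, 1.19 to 2.51), Irf7 had 227 and 155 CPM (1.46-fold lower, 1.26 to 1.70), and Irf9, the DNA-binding part of ISGF3, had 43.7 and 53.4 CPM with a ratio of 1.22 (0.933 to 1.57). Irf7 passed the fold at 1.63-fold lower once the cell with most member UMIs was left out of each library. The OAS enzymes make the messenger that activates RNase L, and of these Oas3 alone was past the fold, with 39.1 and 15.01 CPM (2.61-fold lower, 1.64 to 4.42). Oas1a (52.8 and 40.0 CPM), Oas2 (24.4 and 19.2 CPM), Oasl2 (41.9 and 32.5 CPM) and Oasl1 (14.9 and 18.3 CPM) had ratio intervals that hold 1. So did Eif2ak2, the kinase PKR that halts translation, at 71.2 and 61.7 CPM.

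The other effectors in macrophage-like cells included the 3 members with most UMIs. Ly6e had 1697 and 1243 CPM (1.36-fold lower, 1.30 to 1.44), Ifi27l2a, a small membrane protein, 1390 and 910 CPM (1.53-fold, 1.44 to 1.62), and Ifitm3 1164 and 1077 CPM (1.08-fold, 1.02 to 1.14). Bst2 had 390 and 273 CPM (1.43-fold, 1.28 to 1.60). Samd9l, a translation inhibitor, had 53.6 and 23.3 CPM (2.30-fold, 1.58 to 3.47), Parp14, an ADP-ribosyl transferase, 138 and 85.1 CPM (1.63-fold), and Ifi44 52.5 and 25.9 CPM (2.03-fold). Cmpk2, a mitochondrial nucleotide kinase, had 9.68 and 2.50 CPM, the latter from 3 UMIs (3.87-fold lower, 1.31 to 18.9). Rsad2 (viperin, which makes a chain-terminating nucleotide) had 52.5 and 38.4 CPM, Trim30a 176 and 131 CPM, Sp100, a nuclear body protein, 96.3 and 66.7 CPM, Rtp4 183 and 135 CPM, Lgals3bp 362 and 302 CPM, and all 5 had intervals below 1 without passing the fold. Xaf1, a regulator of apoptosis, stood at 71.0 and 74.2 CPM and Ifi35 at 55.9 and 43.4 CPM, with intervals that hold 1. Beside these values, summed macrophage RNA (10 markers, 0 at 0) summed to 33120 and 32822 CPM with 0 of the 10 past the fold. Hepatocyte genes summed to 3212 and 3100 CPM, but 17 of the 21 measured were lower and 0 higher, and haemoglobin genes to 1456 and 51.7 CPM, with all 4 lower, while early response and heat shock genes, which dissociation is known to raise, stood at 5036 and 9916 CPM. The part of these genes in the member ratios was not tested.

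**Figure D3:**
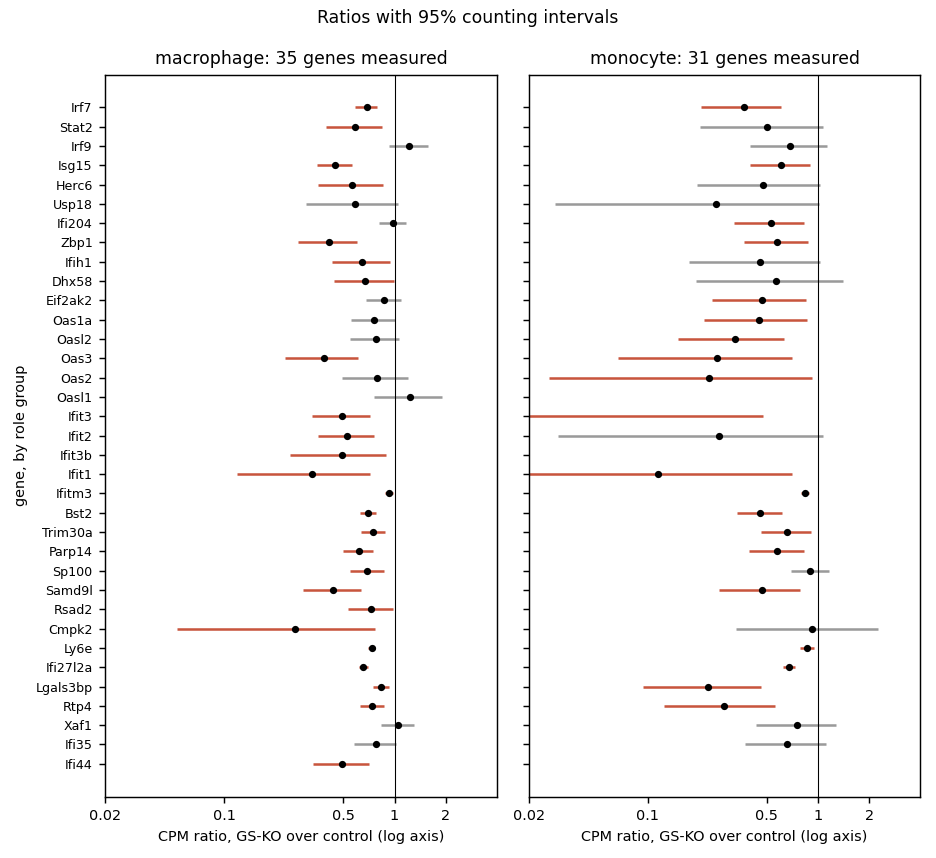
Ratio of GS-KO over control CPM (log axis, line at 1) with its 95% counting interval for the 35 measured members in macrophage-like cells and the 31 in monocyte-like cells. Cmpk2, with 3 GS-KO UMIs, lies farthest left in macrophage-like cells, followed by Ifit1 and Oas3, Irf9, Oasl1 and Xaf1 lie right of 1 with intervals that hold 1, and in monocyte-like cells all points lie left of 1.

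The macrophage-like class joined 5 clusters, and its largest cluster was cluster 7 in control (439 of 1365 cells) and cluster 3 in GS-KO (31 of 99 cells), so the members were also read cluster by cluster. Cluster 7, with Cd163, Marco and Clec4f among its leading genes, had 14 of 35 members lower, where 26.8% of all genes were. Cluster 3, of low depth, had 9 of 24 lower (25.1% of all genes), cluster 9 had 18 of 35 (27.0%), cluster 10, led by Mmp12 and Trem2, had 12 of 35 (22.8%), and cluster 11, led by Gpnmb and Spp1, had 24 of 34 (25.3%). Higher members numbered 3 in cluster 3, 1 each in clusters 7 and 9, 0 in cluster 10 and 2 in cluster 11, where Irf9 had a ratio of 2.30 (1.27 to 3.92) and Ifi204 of 1.64 (1.03 to 2.50). The share of all genes higher was not computed per cluster, so these higher counts have no background beside them. The summed level of all 35 members was lower in GS-KO in each of the 5, with ratios of 0.810, 0.752, 0.759, 0.853 and 0.644 in clusters 3, 7, 9, 10 and 11. The Isg15 level in GS-KO was below control in all 5. In the same order it went from 127 to 34.9, 162 to 77.7, 190 to 74.4, 76.7 to 54.6 and 86.1 to 29.5 CPM. In cluster 10 it did not pass the fold. GS-KO held 85972 UMIs of all genes in cluster 3 and 203209 in cluster 11, so the Isg15 levels there rest on few UMIs. Ifi27l2a and Ly6e in GS-KO were also below control in all 5. In cluster 7 they had 1595 and 1095 CPM and 2120 and 1545 CPM, without passing the fold. Irf7 was not below control in all 5. It had 204 and 244 CPM in cluster 3 and 264 and 293 CPM in cluster 9. In clusters 7, 10 and 11 it had 311 and 183, 135 and 89.1, and 128 and 44.3 CPM. In clusters 3 and 9 the Irf7 levels differed by less than 1.5-fold, with 31 and 13 GS-KO cells, so no direction is read from them. The same holds for the other values under the fold, among them Isg15 in cluster 10 and Ifi27l2a and Ly6e in cluster 7. The GS-KO library held 13 to 31 cells per cluster. With control clusters weighted to the GS-KO mix, 14 of 35 members were lower (share of all genes not computed) and the summed ratio was 0.766, against 0.740 (0.721 to 0.759) unweighted.

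In monocyte-like cells 31 of 31 measured members had a ratio below 1. The share of all measured genes below 1 was not computed, and their median log2 ratio there was −0.013. All 5 measured OAS and PKR genes, all 4 sensors, all 3 measured IFIT genes and all 3 members of the ISG15 system were past the fold. Irf7 had 108 and 39.6 CPM (2.74-fold lower, 1.64 to 4.84), and Stat2 had 37.2 and 18.6 CPM, while Irf9 had 67.7 and 46.6 CPM without passing the fold. Oasl2, an OAS-like protein that bears ubiquitin-like domains, had 71.0 and 23.3 CPM (3.05-fold, 1.58 to 6.597), Oas3 36.4 and 9.31 CPM, and Oas1a 56.7 and 25.6 CPM. Eif2ak2 had 64.3 and 30.3 CPM, and Ifi204, level in macrophage-like cells, had 101 and 53.5 CPM (1.90-fold, 1.21 to 3.105). Ifit3 had 23 control UMIs and 0 in GS-KO, at least 2.79-fold lower against a floor of 3 counts over the group, and Ifit1 had 24 UMIs and 1 UMI (ratio 0.115, 0.00279 to 0.703). Isg15 had 119 and 72.2 CPM (1.65-fold, 1.11 to 2.52), and 1.39-fold with a ratio interval of 0.470 to 1.08 once the cell with most member UMIs was left out of each library.

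Among the remaining members in monocyte-like cells were Lgals3bp, a secreted glycoprotein, at 82.9 and 18.6 CPM (4.45-fold lower, 2.17 to 10.6), and Rtp4, at 74.4 and 20.9 CPM (3.55-fold, 1.79 to 8.03). Bst2 had 260 and 119 CPM (2.19-fold, 1.62 to 3.00), Samd9l 84.6 and 39.6 CPM (2.14-fold), Zbp1 113 and 65.2 CPM (1.74-fold) and Parp14 150 and 86.1 CPM. The members with most UMIs differed by less: Ifitm3 had 4632 and 3868 CPM (1.20-fold, 1.13 to 1.27), Ifi27l2a 2761 and 1862 CPM (1.48-fold, 1.37 to 1.60) and Ly6e 1637 and 1418 CPM. Ifit3b, Oasl1, Ifi44 and Rsad2 fell under the count minimum, with 0, 0, 0 and 1 UMI in GS-KO. The class also differed in its other RNA: macrophage genes summed to 5898 and 1159 CPM, with all 10 lower, classical monocyte genes to 1654 and 2779 CPM, non-classical ones to 1332 and 2106 CPM, and early response genes to 7735 and 12411 CPM. Restricted to cells with at most 2 UMIs of C1qa, C1qb, C1qc and Clec4f (86 control and 51 GS-KO cells, a subset chosen after seeing the data), macrophage RNA was 191 and 55.6 CPM. In this subset Irf7 had 108 and 40.4 CPM, Bst2 243 and 126 CPM, and Ifi27l2a 3117 and 1997 CPM.

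Neutrophil-like cells showed the opposite direction for several of the same genes, and a single GS-KO cell carried most of it. That cell had 3950 UMIs, 410 of them (10.4%) from 26 members, a doublet score of 0.00539 and 110 UMIs of the neutrophil gene S100a9. It held 53 of the 54 GS-KO UMIs of Ifit1, 20 of 21 of Ifit2, all 34 of Ifit3b, 77 of 95 of Rsad2 and 80 of 257 of Isg15, and 104 UMIs of Cxcl10, but 0 of Ifit3. The next GS-KO neutrophil-like cells had 18 and 15 members, and the highest control cell had 19 members and 86 member UMIs. As sums, Ifit1 had 4 and 54 UMIs, Ifit2 1 and 21, Ifit3b 1 and 34, and Rsad2 185 and 306 CPM. Without the cell with most member UMIs in each library, 6 of 15 measured members were lower (17.5% of all genes) and 1 higher (12.7%), and Rsad2 was 2.73-fold lower in GS-KO, at 161 and 58.7 CPM.

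A few neutrophil-like values did not rest on that cell alone. Isg15 had 420 and 827 CPM (ratio 1.97, 1.55 to 2.51) with it and 382 and 577 CPM (ratio 1.51, 1.16 to 1.98) without the top cell of each library. The next 2 GS-KO cells by members held 20 and 27 Isg15 UMIs. Isg15 had a UMI in 39 of 96 control and 47 of 103 GS-KO cells, so its higher sum leaned on few cells. Ifitm3 had 635 and 959 CPM (ratio 1.51) with it and 633 and 897 CPM (ratio 1.42, 1.15 to 1.74) without. Rtp4 was 3.20-fold lower (360 and 113 CPM), Oas3 2.50-fold lower (129 and 51.5 CPM) and Ifi27l2a 1.95-fold lower (1729 and 885 CPM, 1.67 to 2.29), and all 3 were lower without the top cells too. Irf7 (98.7 and 96.6 CPM) and Oasl2 (180 and 212 CPM) had intervals that hold 1, and Ifi44, Ifi204 and Lgals3bp had 0 UMIs in both libraries. The neutrophils differed in maturity genes, since immature granule genes (Camp, Ngp, Ltf and others) summed to 227 and 9027 CPM and mature genes to 14254 and 20363 CPM, and hepatocyte genes stood at 3772 and 335 CPM.

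**Figure D4:**
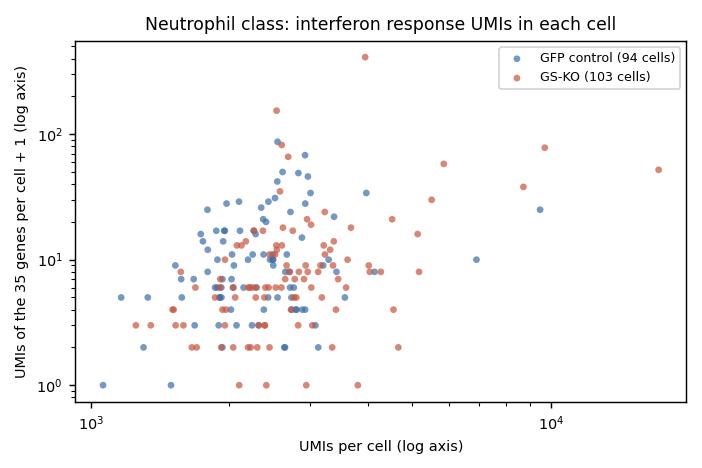
Each neutrophil-like cell with at least 1000 UMIs (94 control, 103 GS-KO) by its total UMIs and its UMIs of the 35 members plus 1, on log axes. A single GS-KO cell with 410 member UMIs stands far above all other cells of both libraries.

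The lymphoid groups expressed few of the members. In B-like cells Ifi27l2a had 576 and 237 CPM (2.43-fold lower, 2.01 to 2.96), Samd9l 165 and 77.1 CPM (2.14-fold, 1.53 to 3.07), Bst2 68.0 and 23.7 CPM (2.87-fold, 1.58 to 5.70), and Ly6e 2316 and 1972 CPM (1.17-fold, 1.10 to 1.26). Ifitm3 had 57 UMIs and 1 UMI there (ratio 0.0627, 0.00156 to 0.364). In T-like cells Samd9l had 75.3 and 28.4 CPM (2.65-fold, 1.354 to 5.76) and Bst2 89.7 and 37.0 CPM (2.42-fold, 1.34 to 4.75), but Ly6e, also known as a thymocyte marker, had 375 and 515 CPM (ratio 1.37, 1.14 to 1.65). In cluster 8 Ifi27l2a had 696 and 131 CPM (5.32-fold lower, 3.85 to 7.57) and Zbp1 83.0 and 34.4 CPM (2.41-fold, 1.27 to 5.16). Sp100 was level in T-like cells (199 and 205 CPM) and in cluster 8 (232 and 217 CPM). Isg15 was also 2.41-fold lower in cluster 8, where a single control cell held 42.7% of its UMIs. Hepatocyte genes stood at 1724 and 174 CPM in B-like and at 1311 and 131 CPM in T-like cells, macrophage RNA at 433 and 45.5 CPM and at 266 and 31.3 CPM, and the part of such RNA from outside the cell in the low counts, Ifitm3 in B-like cells among them, was not tested. The 7 lower members in T-like cells became 0 of 4 measured when each cell was thinned to 1000 UMIs.

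Endothelial-like cells had the median ratio nearest 1 among the 6 groups with a negative median log2 ratio, and they held the highest level of 10 members in control. Bst2 (872 and 841 CPM), Ifitm3 (2044 and 2097 CPM), Isg15 (154 and 168 CPM), Xaf1 (105 and 127 CPM) and Lgals3bp (304 and 282 CPM) all had intervals that hold 1. Ifi27l2a was 5.02-fold lower (343 and 68.2 CPM, 3.63 to 7.10), with UMIs in 28 control and 8 GS-KO cells. Irf7 had 117 and 65.0 CPM (1.80-fold lower), Ifit2 62.8 and 31.7 CPM (1.98-fold), Trim30a 98.6 and 46.0 CPM (2.14-fold) and Herc6 45.6 and 22.2 CPM (2.05-fold). Ifi204 stood at 142 and 186 CPM (ratio 1.31), without passing the fold. Ly6e, without the cell with most member UMIs in each library, had 820 and 553 CPM (ratio 0.674, 0.587 to 0.773). Macrophage RNA in these cells stood at 7946 CPM in control and 633 CPM in GS-KO, with all 9 measured genes lower, and its part in the lower Ifi27l2a and Irf7 values was not tested. With each cell thinned to 1000 UMIs, 0 of 9 measured members were lower and the summed ratio moved from 0.897 to 1.01.

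Hepatocyte-like cells (498 control and 27 GS-KO) are given as levels only. The members summed to 1334 CPM in control and 1068 CPM in GS-KO, with Bst2 at 527 and 343 CPM and Ifitm3 at 432 and 369 CPM. The summed level was 6993 and 5174 CPM in macrophage-like and 11196 and 8282 CPM in monocyte-like cells. Over all kept cells together, which mix different shares of cell types, Isg15 had 89.4 and 111 CPM and Sp100 66.7 and 116 CPM, while Bst2 had 430 and 249 CPM and Ifit3 22.9 and 8.01 CPM. Isg15 was higher over all cells and lower in macrophage-like, monocyte-like and B-like cells, with neutrophil-like cells making up 96 of 3251 control and 103 of 655 GS-KO cells.

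Per cell, the members were counted after each cell was thinned to 1000 UMIs, which left out 197 control and 56 GS-KO cells of lower depth. A macrophage-like cell had 4.31 ± 2.20 members with a UMI in control (SD over 1279 cells) and 3.64 ± 2.14 in GS-KO (85 cells). At least 5 members were seen in 42.7% of the control cells (40.0% to 45.5%) and in 30.6% of the GS-KO cells (21.0% to 41.5%). In monocyte-like cells the means were 4.35 ± 1.87 and 3.40 ± 1.37, and 43.2% (34.1% to 52.7%) and 16% (7.17% to 29.1%) had at least 5. Neutrophil-like cells had means of 2.88 and 2.41 members, so that the summed Isg15 and Ifit counts and the count per cell went opposite ways there. The means were 2.04 and 1.49 in B-like, 1.38 and 1.17 in T-like, 3.64 and 3.43 in endothelial-like cells and 1.79 and 1.08 in cluster 8. Within the macrophage-like clusters they were 3.82 and 3.42 in cluster 3, 4.91 and 4.90 in cluster 7, 5.10 and 4.36 in cluster 9, 3.33 and 3.00 in cluster 10, and 3.44 and 2.44 in cluster 11, and at 2000 UMIs per cell cluster 7 had 7.68 and 6.05. Without thinning, macrophage-like cells had 16.9 and 11.9 members at median depths of 15058 and 11765 UMIs.

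**Figure D5:**
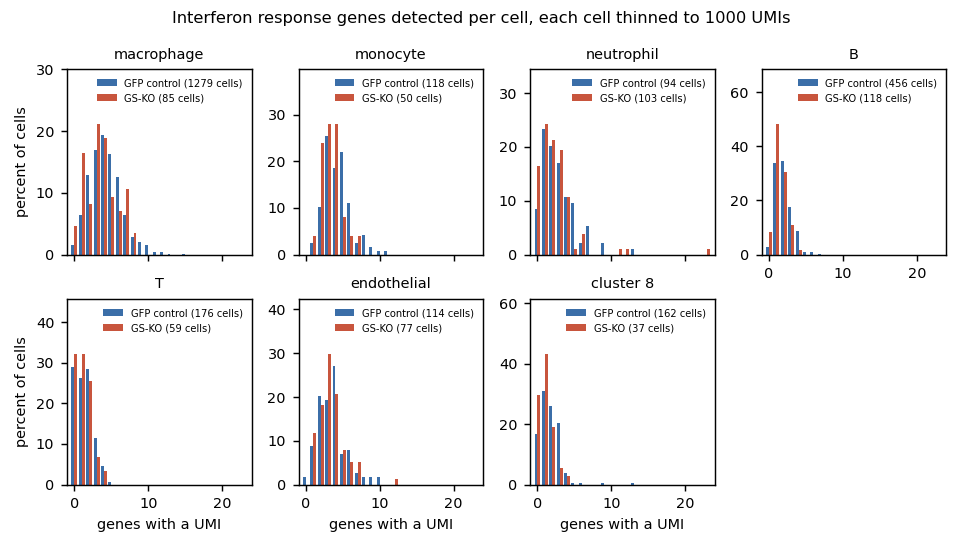
Share of cells (vertical axis, percent) by the number of members with a UMI at 1000 UMIs per cell (horizontal axis) in 7 cell groups, control and GS-KO side by side. The GS-KO distribution lies further left in macrophage-like and monocyte-like cells, where 30.6% and 16% of cells had at least 5 members against 42.7% and 43.2% in control.

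High-scoring cells were counted as a description of the upper tail. At least 8 members at 1000 UMIs were seen in 123 of 3054 control cells, 95 of them macrophage-like, and in 7 of 599 GS-KO cells, 3 of them macrophage-like and 3 neutrophil-like. At least 10 members were seen in 39 control cells, of which 32 were macrophage-like, and in 4 GS-KO cells, of which 3 were neutrophil-like and 1 endothelial-like. Macrophage-like cells numbered 1279 of these control and 85 of these GS-KO cells, so the library counts also follow the cell mix. Within macrophage-like cells, 95 of 1279 and 3 of 85 had at least 8 members, and 32 and 0 had at least 10. Within neutrophil-like cells, 3 of 94 and 3 of 103 had at least 8. The highest control cell was macrophage-like with 15 members, and the highest GS-KO cell was the neutrophil-like cell above with 23.

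The rest of the pathway was read from fixed lists, in the order of the signal. Of 17 type I interferon ligands, 16 had 0 UMIs in both libraries, and Ifnk had 24 control and 3 GS-KO UMIs. Interferon gamma, Ifng, had 146 and 47 UMIs, 145 and 46 of them in cluster 8, where its level was 103 and 158 CPM (ratio 1.54, 1.08 to 2.16). Receptor and kinase genes did not pass the fold in macrophage-like cells (0 of 8 lower and 0 higher): Ifnar2 had 357 and 387 CPM, Ifnar1 49.95 and 42.5 CPM, and Jak1 164 and 154 CPM. In monocyte-like cells 0 of 8 were lower and 1 higher, Ifngr1, a chain of the interferon gamma receptor, at 518 and 836 CPM. In endothelial-like cells 3 of 8 were lower and 1 higher, where 15.3% of all genes were lower and 13.1% higher. The shares of all genes were 17.8% and 10.4% in macrophage-like and 16.9% and 11.8% in monocyte-like cells.

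Among further interferon-induced genes, 55 of 59 of which had a row, 11 of 48 measured were lower and 2 higher in macrophage-like cells, where 17.8% and 10.4% of all genes were. The counts were 22 of 41 and 0 in monocyte-like cells (16.9% and 11.8% of all genes), 11 of 31 and 0 in B-like cells (25.7% and 6.36%) and 12 of 32 and 0 in endothelial-like cells (15.3% and 13.1%). They were 10 of 33 and 4 in cluster 8 (25.1% and 10.7%), 3 of 21 and 3 in T-like cells (18.8% and 10.2%) and 3 of 19 and 4 in neutrophil-like cells (17.5% and 13.1%), so the lower shares in macrophage-like, T-like and neutrophil-like cells and cluster 8 lay near those of all genes. Rnf213, a ubiquitin ligase that coats intracellular microbes, had 117 and 46.7 CPM in macrophage-like cells (2.51-fold lower, 1.93 to 3.34). Gbp2, a GTPase that attacks pathogen vacuoles, had 135 and 34.9 CPM in monocyte-like cells (3.88-fold, 2.28 to 7.09), with 60.0% of the GS-KO UMIs from 1 cell. Of the brakes, 0 of 8 were lower and 1 higher in macrophage-like, 0 of 7 and 2 in monocyte-like, 1 of 5 and 0 in neutrophil-like, 2 of 7 and 2 in B-like, 1 of 7 and 2 in T-like and 3 of 8 and 1 in endothelial-like cells, and 0 of 7 and 1 in cluster 8. Socs3, which blocks cytokine receptors, had 45.6 and 267 CPM in endothelial-like and 65.1 and 112 CPM in monocyte-like cells, while early response genes were higher in the same groups.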

How the data were processed

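The libraries were made with a droplet 3′ kit, which the labels name 3PrimeV2 and in 1 place describe as single-nucleus. Cell Ranger and mm10 are named in the submitters' processing notes, and the authors deposited raw UMI counts per gene and barcode (software version 3.1.0 in the matrix header). Kept barcodes were clustered with scanpy 1.11.5 in Python 3.11.15 (2000 variable genes, 30 components, 15 neighbours, Leiden resolution 1, Scrublet doublets removed), with 95 interferon genes hidden. Counts were summed per group and library as CPM, with exact Poisson intervals for levels, conditional binomial intervals for ratios and Clopper-Pearson intervals for shares (scipy 1.17.1). Log2 ratios used a prior count of 0.5. The counting code was checked on simulated data. In each group and role, genes named are those with most UMIs and those whose interval lies farthest from 1, and other members named were added after their values were seen, to account for the list. Members, lists and tests were chosen with earlier results of these data known. Gene positions come from GENCODE M21 (GRCm38) and promoter windows from RefSeq. The library totals were 64770011 and 8805330 UMIs.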

Additional observations from a re-analysis of the deposited data

Results flagged for a closer look

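Of the 8 members higher in GS-KO in neutrophil-like cells, 5 were lower in at least 1 other group, and the difference between groups was not tested. The other 3, Oasl1, Rsad2 and Sp100, passed 1.5-fold lower in no group. The GS-KO over control ratio in neutrophil-like cells was 1.97 for Isg15, lower by over 1.5-fold in macrophage-like and monocyte-like cells and cluster 8, 10.1 for Ifit1 and 25.5 for Ifit3b, both lower in macrophage-like cells, and 15.8 for Ifit2, lower in macrophage-like and endothelial-like cells. It was 1.51 for Ifitm3, lower in B-like cells. A single GS-KO cell held 98.1% of the Ifit1, 95.2% of the Ifit2 and 100% of the Ifit3b UMIs.

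Barcodes left out for more than 20% mitochondrial UMIs also held the members, counted here in those with at least 500 UMIs and 200 genes (848 of 1799 control and 314 of 694 GS-KO barcodes over the limit). Their summed level was 2394 CPM of non-mitochondrial UMIs in 314 GS-KO barcodes (2238 to 2559) and 2185 CPM in 848 control barcodes (2134 to 2237), beside 4148 and 4462 CPM in the kept cells. Hepatocyte genes took 76413 and 83155 CPM of the same left-out barcodes.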

How the results depend on the processing

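The 1.5-fold count of lower members stayed within 1.5 times its main value under 67 of 88 alternatives over the 7 groups, and the median log2 ratio was below 0 under all 14 in macrophage-like and in monocyte-like cells, all 13 in B-like, T-like and endothelial-like cells and all 7 in cluster 8, but under 3 of 14 in neutrophil-like cells. Thinned to 1000 UMIs per cell, lower members numbered 4 of 9 in monocyte-like, 4 of 9 in B-like, 0 of 4 in T-like, 0 of 9 in endothelial-like cells and 2 of 4 in cluster 8, fewer members being measured at that depth, and 2 were higher in neutrophil-like cells. The endothelial-like summed ratio turned from 0.897 to 1.01, and the cause was not tested. At 2-fold, lower members numbered 9 (macrophage-like), 7 (B-like), 2 (T-like), 7 (cluster 8) and 4 (endothelial-like), and 4 were higher in neutrophil-like cells. Shares of all genes were not computed under the alternatives, except for neutrophil-like cells without the top cells. The counts therefore show how the member calls moved and not how far they stand from the background. With at least 50 UMIs per member, lower ones numbered 6 in B-like and 3 in T-like cells, and 5 were higher in neutrophil-like cells. The T-like count of 7 became 15 at Leiden resolution 2, 15 with doublets kept, 15 with interferon genes used in clustering, 12 at a minimum of 10 UMIs, and 4 with hepatocyte, mitochondrial, ribosomal and haemoglobin genes out of the total. In neutrophil-like cells, lower and higher members numbered 6 and 1 without the top cell of each library, 6 and 2 without cells holding Camp, Ngp or Ltf (chosen after seeing the data), 5 and 5 as a mean over cells, and 5 were lower at a mitochondrial limit of 10%. Higher members, 0 in each of the other 6 groups in the report, reached at most 3 in macrophage-like and endothelial-like cells and 1 in T-like cells, and up to 10 in neutrophil-like cells. The summed ratio moved past its counting interval under 26 alternatives, and lay between 0.714 and 0.766 in macrophage-like, between 0.677 and 0.768 in monocyte-like and between 0.714 and 1.01 in neutrophil-like cells, where its value in the report is 1.01 (0.939 to 1.09). No paired analysis was possible because each condition has 1 library, and for the same reason no replicate could be left out.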

Other observations

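Single cells also carried much of the low IFIT counts outside the neutrophil-like group. In control hepatocyte-like cells 1 cell held 79.0% of the Ifit1, 91.3% of the Rsad2, 73.7% of the Cmpk2 and 66.1% of the Ifit3 UMIs, and in control cluster 8 1 cell held 81.5% of the Ifit1 and 81.0% of the Ifit3 UMIs. Cxcl10, a chemokine induced by interferon, had 91.2% of its 114 GS-KO UMIs in neutrophil-like cells and 89.3% of its 28 in endothelial-like cells in 1 cell each.

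The dividing cluster 13, left unnamed, had 69 control and 9 GS-KO cells. Its members summed to 8497 CPM in control and 655 CPM in GS-KO, with Ifi27l2a at 4526 and 0 UMIs and Ly6e at 1999 and 203 CPM. Macrophage RNA in this cluster stood at 27088 and 366 CPM, immature neutrophil genes at 1369 and 16697 CPM, and classical monocyte genes at 10.6 and 2493 CPM. The cells in it thus differed between the libraries, and the part of this in the member levels was not tested. With 9 cells in GS-KO, and no single cell type named, these are levels only.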
